A study of Mus musculus with 12 samples.

Results

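The sialyltransferases attach sialic acid to the ends of the sugar chains of glycoproteins and glycolipids, and 10 of these genes were followed here in mouse female germline stem cells (FGSCs). The 10 members were *St8sia1*, *St8sia4*, *St8sia6*, *St3gal1*, *St3gal2*, *St3gal4*, *St3gal5*, *St3gal6*, *St6gal1* and *St6galnac4*. They were found by matching the RefSeq accessions of the count table to gene symbols, which gave 18 of the 41388 listed transcripts, or 10 of 24813 named genes. *St8sia4* was chosen by its fold changes after knockout and overexpression of *Stella* (*Dppa3*), so its values in those 2 comparisons are descriptions without a test. The question put to the data was whether *St8sia4* moved alone among the sialyltransferases of the 4 groups.

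RNA-seq covered 12 libraries of FGSC lines from the C57BL/6 strain, in groups KO, KO-con, Over and Over-con with 3 libraries in each. KO was a *Stella* knockout made with Cas9 and guide RNAs delivered by lentivirus, and it was 1 clone, so the knockout and the clone cannot be told apart. KO-con was its control, which the labels describe no further. Over carried a lentiviral *Stella* transgene selected with puromycin, and Over-con carried the empty vector. All lines had originally been sorted from ovary with an antibody against MVH and grown on inactivated STO fibroblast feeders, and all had been passaged more than 20 times. In bulk RNA of this kind, fewer cells of a type and less RNA per cell cannot be told apart.

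Library totals ranged from 5611846 to 12866545 counts, with Over-con replicate 2 the shallowest. *Stella* (NM_139218) had 347, 371 and 285 counts in the 3 Over libraries and 0 counts in each of the other libraries, so its counts mark Over and do not separate KO from KO-con. Of 10 germ cell markers, *Ddx4* (the gene of MVH) had 0 counts and *Dazl* and *Pou5f1* had 1 count each over all 12 libraries, while *Ifitm3* lay between 76.8 and 164 CPM (counts scaled to the size of each library). Each of these 3 genes at or near 0 has 2 accessions in the table, and genes with 2 or more accessions held 3.63% of all counts. The fibroblast collagen *Col1a1* lay between 239 and 507 CPM, the mast cell protease *Cpa3* between 363 and 1214 CPM, and *Laptm5*, a gene of blood cells, between 732 and 1057 CPM. Of the other germ cell markers, *Sycp3* lay between 0.93 and 2.76 CPM and *Prdm1* between 0.23 and 1.97 CPM. The paper reported *Mvh*, *Dazl* and *Oct4* (*Pou5f1*) by RT-PCR, and MVH and OCT4 by immunofluorescence, in its FGSCs. In these counts the labelled cell type was not marked by *Ddx4* or *Dazl*, which cannot be read as absence of these genes.

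Sialyltransferases fall into families by the sugar they extend. ST3GAL enzymes cap galactose, ST6GAL1 caps galactose at another position, ST6GALNAC enzymes extend the N-acetylgalactosamine of O-glycans and the sialic acid-bearing core of some glycolipids, and ST8SIA enzymes add sialic acid to sialic acid. ST8SIA4 and ST8SIA2 are the polysialyltransferases, which build long chains of sialic acid on a few carrier proteins, of which the neural cell adhesion molecule NCAM1 is the best known. Polysialic acid is bulky and charged and is known for loosening contacts between cells.

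The *St8sia4* gene lies on the minus strand at chr1:97484261-97564171 in mm9, in 5 exons. Its 1 transcript in the GENCODE annotation of mm9 is 5411 bases long and codes for 359 residues. Nearly all counts of the gene fell on NM_009183, whose own exons were not examined. The study's RT-qPCR primers for *St8sia4* each matched the genome once. They enclose the stretch printed here because it places that assay on the annotated transcript: the first 112 of 1080 coding bases, all within exon 1 (chr1:97563727-97563838, minus strand). Capitals mark the primer sites, and the sequence starts at the start codon.
*St8sia4* amplicon: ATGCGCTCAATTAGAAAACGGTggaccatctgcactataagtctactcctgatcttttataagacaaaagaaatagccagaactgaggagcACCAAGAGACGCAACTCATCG
Exon 1 ends at coding base 113, so both primers lie in 1 exon and the amplicon does not span an intron. Of the 5411 bases of the transcript, 3998 are 3′ UTR, and where along it the counted RNA-seq reads fell was not examined.

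*St8sia4* was low in KO and Over-con and high in KO-con and Over. NM_009183 had 36.4, 28.7 and 27.8 CPM in the KO libraries and 49.5, 40.9 and 51.6 CPM in the KO-con libraries. It had 53.7, 51.0 and 61.2 CPM in the Over libraries and 30.4, 29.0 and 28.4 CPM in the Over-con libraries. All KO libraries lay below all KO-con libraries, and all Over libraries lay above all Over-con libraries. The group means were 31.0 ± 4.73 CPM for KO, 47.3 ± 5.67 for KO-con, 55.3 ± 5.27 for Over and 29.3 ± 1.03 for Over-con (SD, n = 3). In the order Over, KO-con, KO, Over-con, the ranges of Over and KO-con overlapped, the ranges of KO and Over-con overlapped, and those of KO-con and KO did not. These levels rest on 165 to 666 counts per library. The gene's other accession, NM_001159745, had 0 to 3 counts per library.

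*St8sia4* was lower in KO than in KO-con, with a log2 fold change of -0.61 (SE 0.12), or 0.656 times the control level. It was higher in Over than in Over-con, with a log2 fold change of 0.92 (SE 0.09), or 1.89 times the control level. Leaving out 1 library at a time kept the first value between -0.73 and -0.54 and the second between 0.85 and 0.98. Neither log2 value exceeded 1 in size. Both depended on which control was used: KO set against Over-con gave 0.08, which turns the direction, and Over set against KO-con gave 0.23.

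**Figure D1:**
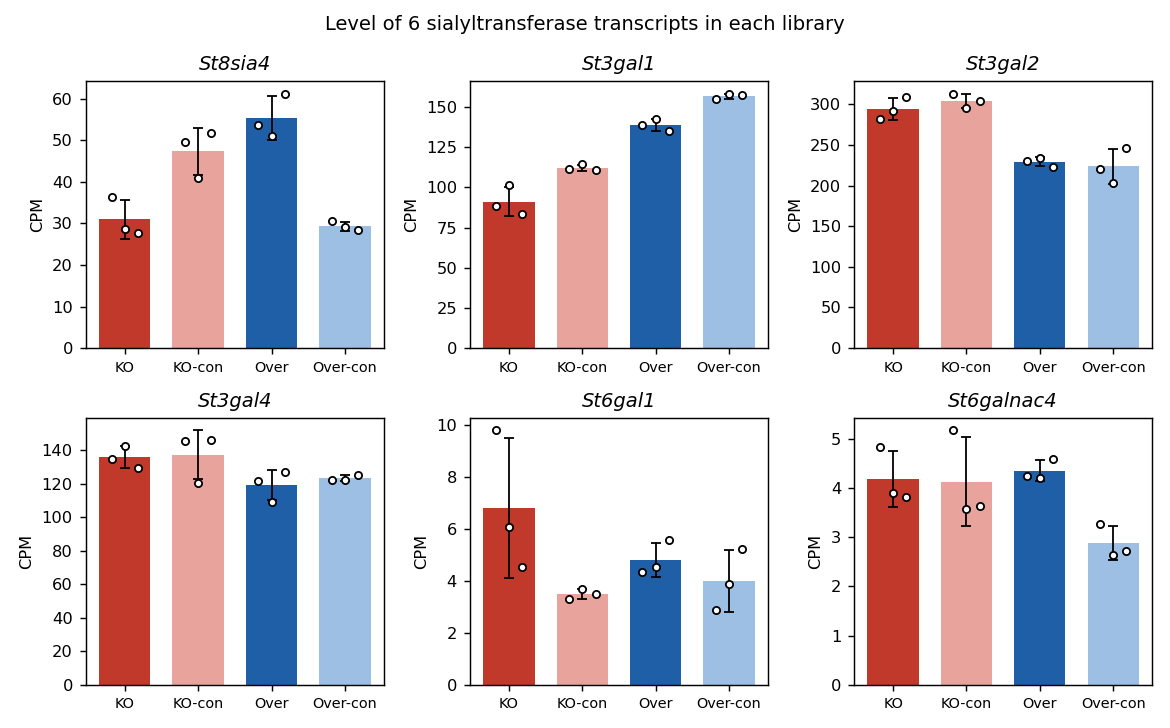
Level of 6 sialyltransferase transcripts in CPM (vertical axis, from 0) in the KO, KO-con, Over and Over-con groups. Bars are group means, error bars are SD and circles are the 3 libraries of each group. *St8sia4* is near 30 CPM in KO and Over-con and near 50 CPM in KO-con and Over, whereas *St3gal1* and *St3gal2* separate the knockout pair from the overexpression pair and *St3gal4* overlaps within each pair.

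Among the members, 6 were counted well enough to be tested and 4 were not. *St8sia1*, which makes the ganglioside GD3, had 1 to 7 counts per library. *St8sia6*, which adds a second sialic acid to O-glycans, had 0 to 2. *St3gal5*, the GM3 synthase at the entry to gangliosides, had 1 count over all libraries on 2 accessions, and *St3gal6*, which caps lactosamine chains, had 0 counts on 4 accessions. The last 2 genes cannot be read as silent, since genes with several accessions held few counts in this table as a whole. *St8sia2*, the other polysialyltransferase, which is no member, has 1 accession and had 0 to 2 counts per library. *St8sia4* was thus the only polysialyltransferase with more than 3 counts in any library.

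Per kilobase of transcript, *St3gal4* and *St3gal2* were the most abundant members, *St3gal1* came next, and *St8sia4* followed at a lower level. Lengths were those of the longest annotated coding transcript of each gene. The first 3 genes have 1 accession each, whereas *St8sia4* and *St6galnac4* have 2 and *St6gal1* has 3. Genes with several accessions held few counts in this table. The lower places of *St8sia4*, *St6galnac4* and *St6gal1* thus cannot be told apart from their number of accessions. The means over the 12 libraries were 63.5 CPM per kilobase for *St3gal4*, 59.8 for *St3gal2*, 23.3 for *St3gal1*, 7.52 for *St8sia4*, 1.07 for *St6galnac4* and 1.06 for *St6gal1*. In KO and KO-con the means of the first pair lay within their SD of each other, whereas *St3gal4* was higher in Over and Over-con. In KO, *St3gal2* had 67.0 ± 3.15 and *St3gal4* 66.9 ± 3.24 CPM per kilobase (SD, n = 3), and in Over they had 52.2 ± 1.22 and 58.8 ± 4.47 CPM per kilobase (SD, n = 3). *St8sia4* stayed below *St3gal1* in every group, at 5.72 ± 0.874 against 17.0 ± 1.70 in KO and 10.2 ± 0.974 against 25.9 ± 0.711 CPM per kilobase in Over (SD, n = 3). The summed level of all 20 sialyltransferase genes was 578 ± 8.61 CPM for KO, 618 ± 26.4 for KO-con, 566 ± 6.94 for Over and 553 ± 23.7 for Over-con (SD, n = 3). Within that sum, which is not scaled by length, *St8sia4* took 5.37% ± 0.889 of KO counts, 7.66% ± 0.653 of KO-con counts, 9.78% ± 0.832 of Over counts and 5.33% ± 0.361 of Over-con counts (SD, n = 3).

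*St3gal1* (NM_009177; mm9 chr15:66934437-66945922, minus strand) encodes an enzyme that caps the galactose of core 1 O-glycans. It had 88.4, 101 and 83.8 CPM in KO and 111, 115 and 111 CPM in KO-con. In the other pair of groups it had 139, 143 and 135 CPM in Over and 155, 158 and 157 CPM in Over-con. Each line lay below its own control with no overlap, and both groups of the overexpression pair lay above both groups of the knockout pair. The log2 fold change was -0.29 (SE 0.08) in KO and -0.17 (SE 0.06) in Over.

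*St3gal2* (NM_009179; chr8:113443822-113496380, plus strand) acts on the same O-glycan core and on gangliosides. It had 282, 292 and 310 CPM for KO, 313, 296 and 304 for KO-con, 231, 234 and 224 for Over and 221, 203 and 247 for Over-con. The groups of each pair overlapped, and the knockout pair lay above the overexpression pair. The log2 fold change was -0.04 (SE 0.07) in KO and 0.04 (SE 0.07) in Over. *St3gal4* (NM_009178; chr9:34854164-34924395, minus strand) caps lactosamine ends on N- and O-glycans and contributes to selectin ligands. It ranged from 130 to 143 CPM for KO, 120 to 146 for KO-con, 109 to 127 for Over and 122 to 125 for Over-con, and its log2 fold changes were -0.01 (SE 0.08) and -0.04 (SE 0.07). The 95% intervals of the *St3gal4* values ran from -0.18 to 0.17 in KO and from -0.19 to 0.11 in Over.

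*St6gal1* (NM_145933; chr16:23224813-23360421, plus strand) caps the galactose of N-glycans and was counted at a low level. It had 9.79, 6.07 and 4.54 CPM for KO, 3.31, 3.67 and 3.51 for KO-con, 4.35, 4.52 and 5.56 for Over and 2.87, 3.87 and 5.24 for Over-con. The KO libraries lay above the KO-con libraries and had the widest spread of the 4 groups, and Over and Over-con overlapped. The log2 fold change was 0.94 (SE 0.26) in KO and 0.26 (SE 0.24) in Over. *St6galnac4* (NM_011373; chr2:32442615-32455218, plus strand) adds a second sialic acid to the O-glycan core that ST3GAL1 has capped. It had 4.84, 3.90 and 3.81 CPM for KO, 5.17, 3.58 and 3.64 for KO-con, 4.26, 4.21 and 4.60 for Over and 3.28, 2.64 and 2.72 for Over-con. Only Over and Over-con did not overlap within a pair, and the log2 fold change was 0.02 (SE 0.23) in KO and 0.59 (SE 0.22) in Over. *St6galnac6* follows *St6galnac4* on the same strand with 10 bases between the annotated genes, and how reads near that boundary were assigned is not stated.

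Without *St8sia4*, 5 members were tested. In KO against KO-con, 2 of them had an adjusted p under 0.05 by edgeR's quasi-likelihood test, *St6gal1* higher and *St3gal1* lower, against 11.8% of all 9457 transcripts tested in that comparison. The median log2 fold change was -0.0067 over the 5 members and 0.0067 over all transcripts. In Over against Over-con, 0 of the 5 passed by edgeR or by DESeq2, against 1.65% of all 9401 transcripts, and *St3gal1* and *St6galnac4* had an unadjusted p under 0.05. There the median was 0.04 over the 5 members and -0.0012 over all transcripts. Since the members were chosen with these comparisons known, nothing is read from either count. The calls of *St3gal1* and *St6gal1* in KO were not stable. *St3gal1* no longer passed without KO replicate 3 or without any one of the KO-con libraries (log2 fold change -0.38 to -0.24 over all omissions), nor with library totals in place of TMM scaling. *St6gal1* no longer passed without KO replicate 1, KO replicate 2 or any one of the KO-con libraries (0.61 to 1.16), and its value fell to 0.61 without KO replicate 1. With Over-con in place of KO-con, *St6gal1* had 0.74 and was not called, whereas *St3gal1* had -0.78 (edgeR adjusted p = 6.85e-05). With KO-con in place of Over-con, *St3gal1* turned to 0.31 in Over.

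**Figure D2:**
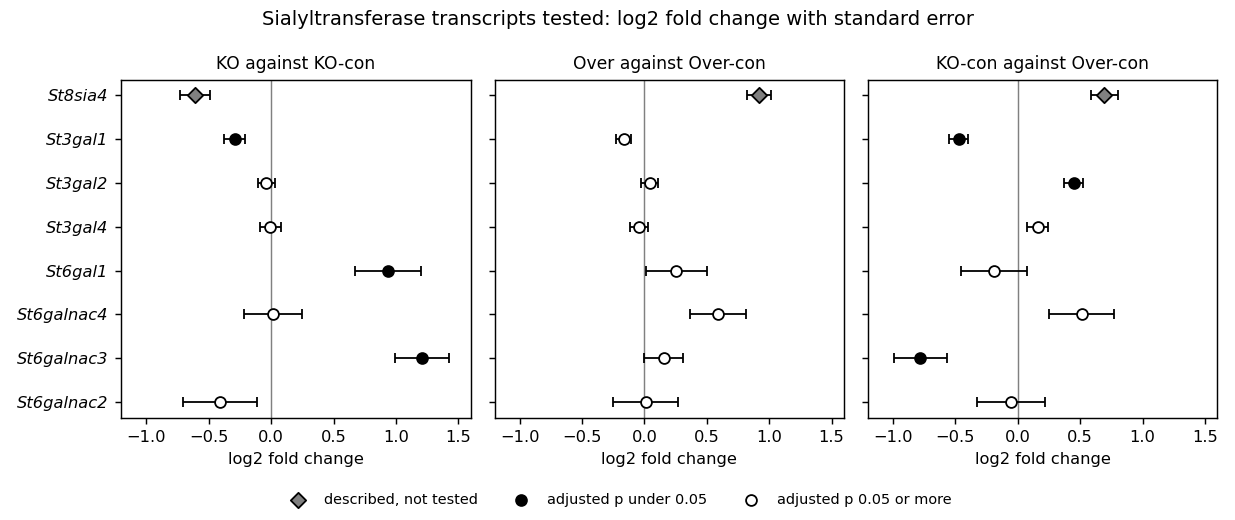
Log2 fold change (horizontal axis) of the 8 sialyltransferase transcripts tested, with a panel each for the knockout pair, the overexpression pair and the controls. Bars are standard errors, filled circles passed an adjusted p of 0.05, open circles did not, and grey diamonds mark *St8sia4*, which was described without a test. *St8sia4* lies at -0.61 and 0.92 in the first 2 panels and *St6galnac3* at 1.21 and 0.15.

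Of the 10 other sialyltransferase genes, *St6galnac3* and *St6galnac2* could be tested in each pair. *St6galnac3* (NM_011372; chr3:152868369-153388026, minus strand), which extends sialylated O-glycans and gangliosides, had 10.8, 7.98 and 12.7 CPM in KO and 5.69, 4.47 and 3.39 in KO-con. It had 9.62, 8.04 and 8.45 CPM in Over and 7.79, 8.62 and 7.37 in Over-con. KO-con stood below the other groups, which overlapped one another. *St6galnac3* rose in KO with a log2 fold change of 1.21 (SE 0.22, edgeR adjusted p = 0.00177) and had 0.15 (SE 0.16, edgeR adjusted p = 0.747) in Over. With Over-con as the control, its KO value was 0.42 and did not pass. *St6galnac2*, which extends the bare O-glycan core, had 1.54 to 3.33 CPM and log2 fold changes of -0.41 (SE 0.30) and 0.01 (SE 0.26), and it passed in neither comparison. Besides *St8sia4*, 3 of 7 tested sialyltransferases were thus called in KO, against 11.8% of all transcripts, and 0 of 7 in Over by edgeR or by DESeq2, against 1.65%, with 2 at an unadjusted p under 0.05.

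The control groups were also compared with each other. *St8sia4* had a log2 fold change of 0.69 (SE 0.11) in KO-con against Over-con, given without a test because these libraries also gave the fold changes that selected it. *St3gal2* was higher in KO-con, with 0.45 (SE 0.08, edgeR adjusted p = 0.000277). *St3gal1* was lower, at -0.47 (SE 0.07, edgeR adjusted p = 9.35e-05). These were 2 of the other 5 tested members, against 16.3% of all 9321 transcripts, and both passed under each of 13 alternatives to the fit. *St3gal4* had 0.16 (95% interval -0.01 to 0.33), *St6galnac4* 0.51 (-0.03 to 1.05) and *St6gal1* -0.19 (-0.74 to 0.35), and none of them passed. *St6galnac3* was lower in KO-con, at -0.78 (SE 0.21, edgeR adjusted p = 0.0144), a call that was lost without KO-con replicate 3, where the value was -0.63. This comparison shares its libraries with the knockout and overexpression comparisons, so the 3 sets of values are not independent, and the line, its vector and any batch cannot be told apart between the controls.

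The difference between the knockout effect and the overexpression effect was then taken in 1 fit of all 12 libraries, a comparison added after the counts had been seen. For *St8sia4* it was -1.53 on the log2 scale (SE 0.16), given without a test. Of the other 5 tested members, 0 were called by edgeR or by DESeq2, against 8.64% of all 9903 transcripts, and 0 had an unadjusted p under 0.05. *St6gal1* had 0.68 (SE 0.38), *St6galnac4* -0.57 (SE 0.31), *St3gal1* -0.12 (SE 0.10), *St3gal2* -0.08 (SE 0.10) and *St3gal4* 0.03 (SE 0.11). For *St6galnac3* the difference was 1.06 (SE 0.28, edgeR adjusted p = 0.0224). That call was lost without KO replicate 3, KO-con replicate 2, KO-con replicate 3 or Over replicate 2, with values between 0.88 and 1.25 over all omissions.

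Marker lists of other cells moved with some of these comparisons. The summed level of the mast cell list (9 of its genes in the table, 5 of them at 3 counts or fewer in every library, *Tpsab1*, *Fcer1a* and *Ms4a2* at 0) was 1147 to 1228 CPM for KO, 371 to 430 for KO-con, 646 to 668 for Over and 759 to 863 for Over-con. The sum was nearly all *Cpa3*. The macrophage list, with 2 of 7 genes at 3 counts or fewer, had 43.0 to 51.6 CPM in KO against 33.9 to 41.3 in KO-con, and 48.4 to 51.1 in Over against 35.7 to 41.6 in Over-con, higher in both lines than in their controls. Most of that sum was *Cd68* (25.6 to 44.7 CPM over the 12 libraries), while *Adgre1* and *Itgam* had 0 counts. The fibroblast list, with 3 of 11 genes at 3 counts or fewer (*Pdgfrb* at 0), had 1194 to 1706 CPM for KO, 1336 to 1554 for KO-con, 1656 to 1716 for Over and 1905 to 2091 for Over-con. The list of blood cells in general had 972 to 1124 CPM for KO and 865 to 992 for KO-con. It had 973 to 1056 CPM for Over and 1121 to 1231 for Over-con. The germ cell list, which includes *Stella* and was mostly *Ifitm3*, had 79.8 to 120 CPM for KO and 115 to 140 for KO-con. In Over it had 149 to 162 CPM, against 152 to 167 in Over-con. Within each pair the mast cell sum moved opposite to *St8sia4* without overlap. The macrophage sum did so in KO and moved with *St8sia4* in Over. The part of these sums in the values of the sialyltransferases was not tested.

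The genes that make, move, carry and read sialic acid were examined as 5 lists of 49 genes in all. In KO against KO-con, 23 of them were tested, 2 were higher and 4 lower. In Over against Over-con, 22 were tested, 1 was higher and 1 lower. In KO-con against Over-con, 22 were tested, 5 were higher and none was lower. Of all transcripts tested, 11.8%, 1.65% and 16.3% were called in these comparisons, in that order. Since the lists were chosen with earlier results of these data known, nothing is read from these counts.

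No tested gene of sialic acid synthesis, activation and transport was called in any of these comparisons. The list has 9 genes, of which 3 were tested: *Nans* (sialic acid synthase), *Cmas*, which activates sialic acid to the donor used by every sialyltransferase, and *Slc35a1*, which carries that donor into the Golgi. *Cmas* ranged from 120 to 151 CPM over the 12 libraries, with log2 fold changes of -0.11 (SE 0.07) in KO and -0.16 (SE 0.07) in Over. *Nans* ranged from 84.2 to 133 CPM, with -0.27 (SE 0.10) and -0.12 (SE 0.08). *Gne*, which encodes the enzyme at the start of the pathway, had 0 counts on 3 accessions and, as with *St3gal6*, cannot be read as silent.

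The carriers of polysialic acid were represented by 2 tested genes of 6, and neither was called. *Ncam1*, the main carrier, was near the limit of counting. Its 2 counted accessions had 0.72 to 2.11 CPM (NM_010875) and 0.24 to 1.67 CPM (NM_001113204), with log2 fold changes of 0.23 (SE 0.42) and 0.90 (SE 0.53) in KO and 0.27 (SE 0.40) and 1.11 (SE 0.51) in Over. *Glg1*, a Golgi glycoprotein that can carry polysialic acid, was abundant at 235 to 261 CPM, with -0.11 (SE 0.06) and -0.06 (SE 0.06). *Nrp2*, *Cadm1* and *Cd36* had 0 counts on 5 or 6 accessions each, and *Ccr7* had 2 counts in all. As with *St3gal5* and *St3gal6*, these genes cannot be read as silent. The 95% interval for NM_010875 in KO ran from -0.67 to 1.13, so a change of *Ncam1* within those bounds was not detectable with these counts. For NM_001113204 the interval ran from -0.23 to 2.02 in KO. In Over it ran from 0.016 to 2.20, with an unadjusted p of 0.047 and an adjusted p of 0.381 by edgeR.

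Among genes that build the sugar chains to which sialic acid is added, 9 of 14 were tested. In KO, 4 were lower and none was higher, against 11.8% of all transcripts called in either direction, and nothing is read from this count. *B4galt1*, a galactosyltransferase that makes lactosamine, had 267, 274 and 267 CPM in KO against 382, 367 and 385 in KO-con, and fell by 0.48 on the log2 scale (SE 0.06, edgeR adjusted p = 0.000154). In Over it had 291, 273 and 284 CPM against 273, 273 and 283 in Over-con, and its log2 fold change was 0.04 (SE 0.06). KO-con was the group that stood apart, and KO-con exceeded Over-con by 0.46 (SE 0.07, edgeR adjusted p = 5.75e-05). With Over-con as control, the KO value of *B4galt1* was -0.04. *Ugcg*, the glucosylceramide synthase that opens the ganglioside route, fell by 0.41 in KO (SE 0.07, edgeR adjusted p = 0.00119), and its value was -0.47 with Over-con as control. *B4galt5*, the lactosylceramide synthase, fell by 0.39 in KO (SE 0.07, edgeR adjusted p = 0.00202) and by 0.30 in Over (SE 0.06, edgeR adjusted p = 0.0207), and the second call was lost without any one of the Over libraries or without Over-con replicate 1. With Over-con as control the KO value of *B4galt5* was -0.16 and did not pass. *Mgat5*, which branches N-glycans, fell by 0.26 in KO (SE 0.08, edgeR adjusted p = 0.0386), a call lost without KO replicate 2, KO-con replicate 1 or KO-con replicate 2 and with library totals in place of TMM or the replicate number as a block. With Over-con as control its value turned to 0.12.

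The 5 genes of this list that were higher in KO-con than in Over-con were *B4galt1*, *Mgat5* (0.40, SE 0.08), *Mgat2* (0.30, SE 0.07), *B3gnt2* (0.95, SE 0.24) and *B4galt5* (0.24, SE 0.07). They were 5 of 9 tested, against 16.3% of all transcripts called in either direction, and nothing is read from this count. *Mgat2* starts complex N-glycans and *B3gnt2* elongates lactosamine chains. The call of *B3gnt2* was lost without Over-con replicate 1, and that of *B4galt5* without KO-con replicate 1 or 3 or Over-con replicate 1 or 2 and with library totals. *B3gnt2* (NM_001169114) had the same signs as *St8sia4*: -0.34 (SE 0.20) in KO and 0.75 (SE 0.23) in Over, neither of which passed. The difference between its effects was -1.09 (SE 0.30, edgeR adjusted p = 0.0269), and that call was lost on leaving out any 1 of 6 of the 12 libraries.

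Of the genes that remove or modify sialic acid, 4 of 7 were tested. *Neu1*, the lysosomal sialidase, had 80.7, 71.6 and 75.1 CPM in KO and 65.0, 60.1 and 64.7 in KO-con. It rose by 0.27 on the log2 scale (SE 0.08, edgeR adjusted p = 0.0433), a call lost on leaving out any one of the 6 libraries, by DESeq2 and with the replicate block, and had -0.00032 (SE 0.08) in Over. With Over-con as control, the KO value of *Neu1* was 0.44 (edgeR adjusted p = 0.00609). *Siae*, a sialic acid esterase, had 0.25 (SE 0.08) in KO and -0.12 (SE 0.07) in Over and passed in neither. Of 13 sialic acid-binding receptors, selectins and selectin ligands, 5 were tested in KO and 4 in Over. *Sele* (E-selectin) had 1.27, 2.26 and 1.09 CPM in KO and 0.10, 0.36 and 0.36 in KO-con. It rose by 2.46 (SE 0.54, edgeR adjusted p = 0.00726) on 1 to 26 counts per library, and the call was lost without KO replicate 2 or KO-con replicate 1 and by DESeq2. With Over-con as control its value was 0.10. *Selplg*, the ligand of P-selectin, had 33.9, 33.9 and 31.1 CPM in Over and 22.4, 21.3 and 25.1 in Over-con, and rose by 0.52 (SE 0.10, edgeR adjusted p = 0.0147), a call lost without Over replicate 1, Over replicate 2 or Over-con replicate 1 and with all 12 libraries in 1 fit. In KO it had 0.11 (SE 0.14).

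**Figure D3:**
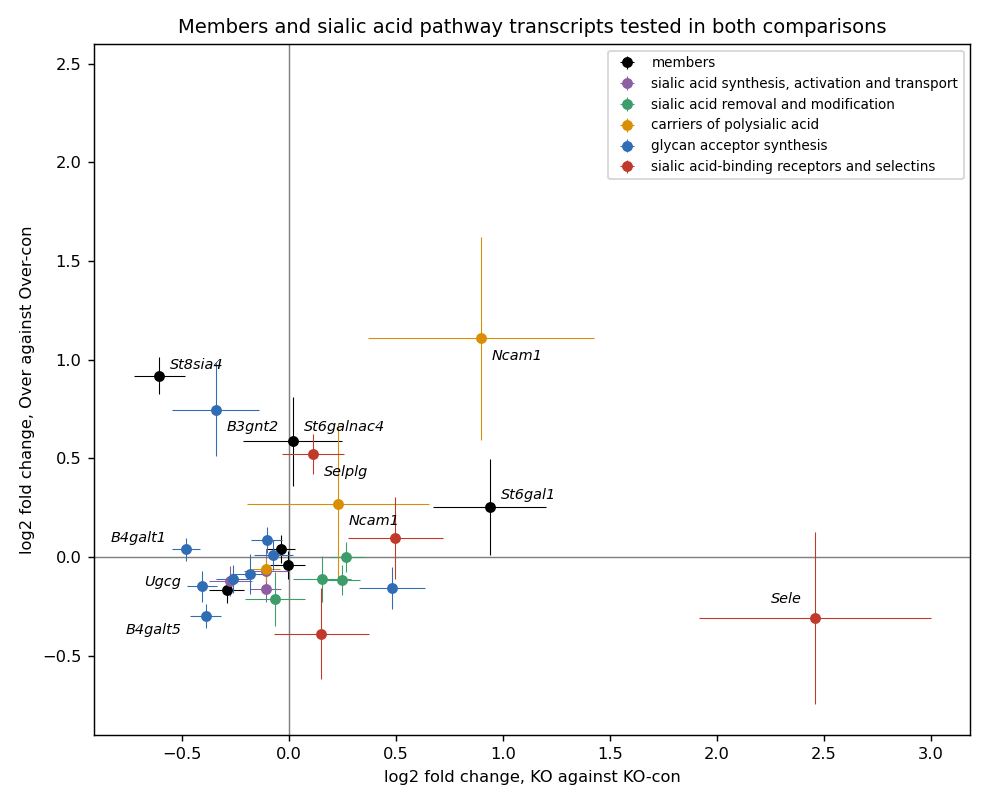
Log2 fold change in KO against KO-con (horizontal axis) and in Over against Over-con (vertical axis) for the tested members and pathway transcripts. Points are transcripts coloured by list and bars are standard errors. *St8sia4* lies at -0.61 and 0.92, *B4galt1* at -0.48 and 0.04 and *Sele* at 2.46 and -0.31. Of sialic acid synthesis, activation and transport, *Nans* lies at -0.27 and -0.12, *Cmas* at -0.11 and -0.16 and *Slc35a1* at -0.11 and -0.07.

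The transcripts whose pattern was most like that of *St8sia4* were sought over the 12 libraries among 9241 transcripts with a mean of at least 1 CPM. The measure was Pearson's r of log2 CPM, given as a description. The 5 highest were *Nsd1* (r = 0.93), a histone methyltransferase gene; *C1qtnf12* (0.91), which encodes a secreted protein; *Ttll4* (0.91), a tubulin-modifying enzyme; *Onecut3* (0.88), a transcription factor; and *Pabpn1* (0.87), a nuclear poly(A)-binding protein. The 3 lowest were *Cpe* (-0.92), a carboxypeptidase, *Evc* (-0.90), a protein of the primary cilium, and *Dock1* (-0.88), an activator of Rac. None of these is a sialyltransferase, but that family supplied only a few of the 9241 transcripts, so nothing is read from this.

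*Onecut3* moved over a range like that of *St8sia4*, at 4.75 ± 0.268 CPM for KO, 9.82 ± 0.870 for KO-con, 9.04 ± 2.08 for Over and 5.18 ± 0.139 for Over-con (SD, n = 3). *Nsd1* kept the order of groups over a much smaller range, at 489.9 ± 11.9, 538 ± 15.4, 552 ± 18.9 and 488 ± 8.26 CPM (SD, n = 3). *Cpe* ran the other way, at 466 ± 17.3, 399 ± 9.83, 373 ± 3.78 and 449 ± 11.4 CPM (SD, n = 3). Of the members, *St6galnac4* had the highest r with *St8sia4* at 0.63, *St3gal1* had 0.09, *St3gal2* and *St3gal4* had -0.02 each and *St6gal1* had -0.10. Of the other tested sialyltransferases, *St6galnac2* had 0.28 and *St6galnac3* had -0.36. All points of these correlations come from the same 12 libraries in 4 groups, so r mainly follows the 4 group levels.

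**Figure D4:**
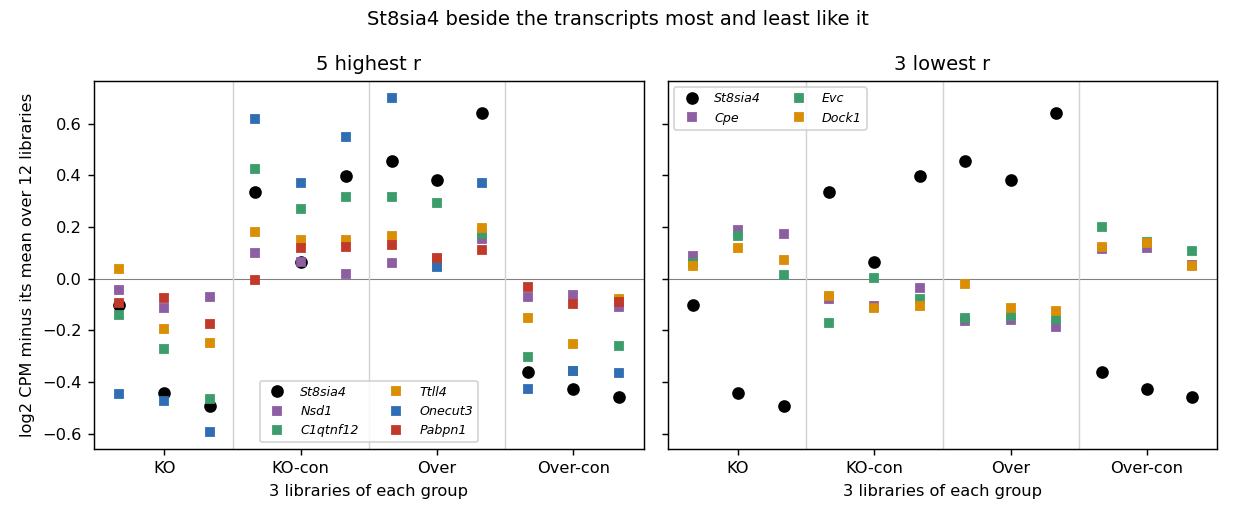
Log2 CPM minus its mean over the 12 libraries (vertical axis) for *St8sia4* and the 5 transcripts with the highest r (left) or the 3 with the lowest r (right), with the libraries placed by group. *St8sia4* runs from -0.49 in a KO library to 0.64 in an Over library, and *Nsd1* and *Pabpn1* keep within a narrower band.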

How the data were processed

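RNA was sequenced from 12 libraries (KAPA stranded mRNA kit). Raw counts per RefSeq transcript were deposited by the authors, who trimmed the reads and used HISAT2 with its defaults on mm9. The table's name gives featureCounts as the counter. The strand setting, the annotation release and the treatment of reads shared between transcripts are not given in the sources used here. Groups and replicate numbers came from sample titles. Nothing says that the 3 libraries of a group were separate cultures, so p-values measure only the spread between libraries.

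Symbols came from RefSeq tables of GRCm38.p6 (41186 of 41388 transcripts), and positions from the GENCODE annotation of mm9. Deposited counts were tested per transcript with edgeR 4.0.16 (R 4.3.3; filterByExpr, TMM, glmQLFit, glmQLFTest) and Benjamini-Hochberg adjustment over all transcripts tested in a comparison, with an adjusted p under 0.05 as the call. DESeq2 1.42.0 was an alternative. The tests were checked on simulated data with the same spread for all transcripts and larger changes than most of those given here. That check does not cover smaller changes or noisier genes. CPM are TMM-scaled over all libraries. A level of 3 counts, the smallest read as present, equals 0.230 to 0.528 CPM and covers counting error only. An exact permutation test of 3 against 3 libraries cannot go below p = 0.10, so none was used. The members and the lists were chosen with earlier results of these data known. The text names all members and, of each list and comparison, at most 4 called genes by lowest adjusted p, or else the 2 with the highest mean CPM; the fifth called gene of 1 list and genes at 0 counts were named after their values were seen. The 5 transcripts with the highest and the 3 with the lowest r with *St8sia4* were also named.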

Additional observations from a re-analysis of the deposited data

Results flagged for a closer look

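For *St8sia4*, every KO library lay below its controls and every Over library above its controls, and the difference between the effects was -1.53 on the log2 scale (SE 0.16). The gene was chosen for this pattern, so the difference was not tested. For *St6galnac3*, the knockout effect exceeded the overexpression effect by 1.06 (SE 0.28, edgeR adjusted p = 0.0224), and KO-con was the group that stood below the rest.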

How the results depend on the processing

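Counts of members here include *St8sia4*. With the other line's control, the log2 fold changes in KO turned to 0.075 for *St8sia4*, 0.40 for *St3gal2* and 0.14 for *St3gal4*, and 2 pathway genes were called in place of 6. In Over they turned to 0.31 for *St3gal1* and -0.40 for *St3gal2*, *St8sia4* had 0.23, and 3 members and 8 pathway genes were called in place of 1 and 2. With library totals in place of TMM, *St3gal4* in KO turned to 0.032. Requiring an absolute log2 fold change over 1 left 0 members and 1 pathway gene in KO, 0 and 0 in Over, 0 and 0 between the controls, and 2 pathway genes in place of 5 in the difference between the effects. With all 12 libraries in 1 fit, 1 pathway gene was called in Over. Replicate numbers did not pair the libraries: the deviations of same-numbered libraries had r between -0.15 and 0.06. With the replicate number as a block, 4 pathway genes were called in KO, 0 in Over, 5 between the controls and 3 in the difference, and the counts of members stayed at 3, 1, 3 and 1. Leaving out 1 library at a time gave 1 to 2 members in KO, and 3 to 7 pathway genes in KO, 0 to 4 in Over, 3 to 7 between the controls and 1 to 6 in the difference. Signs turned in these omissions for values near 0: *St3gal4* in KO (-0.093 to 0.039), in Over (-0.082 to 0.021) and in the difference (-0.070 to 0.077), *St6galnac4* in KO (-0.087 to 0.21), *St3gal2* (-0.014 to 0.12) and *St6galnac2* (-0.14 to 0.084) in Over and *St6gal1* between the controls (-0.41 to 0.099). By Spearman's rho, 0 of the 5 transcripts most like *St8sia4* were again among the first 5, and with a prior count of 0.5 all 5 were. The cause of these changes was not tested. Low counts limit *Ncam1*, *Sele*, *St6gal1* and *St6galnac4*, and the 4 members with few or no counts could not be tested.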
